A study of Homo sapiens with 10 samples.

Results

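The SLAM family receptors and their SAP adaptors were followed as 9 genes in NK-92, an established human line grown from a natural killer (NK) cell lymphoma. The genes were taken by symbol from a table of 54628, and all 9 were present: the receptors SLAMF1, SLAMF6, SLAMF7, CD244, CD84 and LY9, the ligand CD48, and the adaptors SH2D1A (SAP) and SH2D1B (EAT-2). The 10 libraries of polyadenylated RNA form 5 groups of 2. Cells received 500 µM of the iron chelator deferoxamine (DFO) for 6 h or 24 h, or 10 µg/mL of T003 (PPMX-T003), which is an antibody to transferrin receptor 1, the receptor for iron-loaded transferrin, for the same times, or were taken untreated at 0 h. No untreated library was taken at 6 h or 24 h, so the effect of an agent and that of time in culture cannot be told apart in any comparison with untreated cells or between times. All groups were the same cell line in the same medium with human serum. The labels do not say whether the 2 replicates of a group were grown apart, and the p-values rest on the spread between these libraries alone, which may be technical. The libraries are bulk RNA, so a changed level per cell and a changed share of cells that express a gene cannot be told apart.

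SLAM receptors are immunoglobulin-fold proteins by which blood cells recognise each other. Most of them bind a copy of themselves on the facing cell, whereas CD244 binds CD48, which is held in the membrane by a lipid anchor and has no signalling tail. The tails of the other receptors carry tyrosine motifs to which the small SH2-domain adaptors SAP and EAT-2 bind, and these adaptors turn the receptors toward activation of NK cells. Loss of SAP causes X-linked lymphoproliferative disease, in which NK and T cells fail to control B cells that carry Epstein-Barr virus.

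Of the 9 genes, 8 passed the filter on low counts and CD84 did not. CD48 and SLAMF7 rose after 24 h with either agent, SH2D1A rose after 24 h of T003, and SH2D1B fell after 24 h with either agent. The called changes against untreated cells were small, the largest being 1.24-fold, for SLAMF7 with T003. After 6 h none of the 8 passed the test with either agent, at a time when 0.0248% of all genes were called with DFO and 0.0298% with T003. The receptor CD244 stayed within a narrow range in all 10 libraries.

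Totals ran from 107117892 to 143575614 estimated counts per library. Principal component 1 of the log2 levels (15.8% of the variance) set the 4 libraries at 24 h, at 23.7 to 37.0, apart from the 6 others, at -27.7 to -10.9. DFO 6 h replicate 1, which had the smallest total, stood apart on the second component (12.3%), at 61.9 against -22.2 to 7.08 for the others, and the 1 call of a member that ended without it is given with the 24 h against 6 h values. Of 13 NK markers, 12 had a mean of at least 1 CPM (counts relative to the library total, scaled by the TMM method) in every group. Of 7 B cell markers none reached 1 CPM, the summed level of the list was 0.146 to 0.329 CPM over all libraries, and CD79A alone had counts. Of 9 myeloid markers 1 reached 1 CPM, and none of 6 platelet and erythroid or 4 dendritic markers did. The summed level of the NK list was 2940 to 2983 CPM with DFO and 3090 to 3101 CPM with T003 at 24 h, against 2911 to 2938 CPM in untreated cells. Its members moved both ways. At 24 h with either agent the means of NCR1, NCR3, GNLY, PRF1, GZMB, GZMA and TBX21 were above untreated cells. Those of NCAM1, KLRD1, NKG7 and EOMES were below. FCGR3A was the NK marker under 1 CPM. Of 12 T cell markers 6 reached 1 CPM, and the summed level of the 12 was 649 to 677 CPM with DFO and 665 to 672 CPM with T003 at 24 h, against 622 to 636 CPM in untreated cells. The 6 were CD3E, CD6, CD28, TRAC, TRBC1 and TRBC2. CD3E averaged 435 CPM in untreated cells, 451 CPM after 24 h of DFO and 438 CPM with T003 for 24 h. CD28 averaged 97.2 CPM in untreated cells, 120 CPM after 24 h of DFO and 134 CPM with T003 for 24 h. In the same order TRAC averaged 16.3, 20.6 and 24.4 CPM. The means of the other markers were lower at 24 h. They were 18.3, 15.5 and 16.2 CPM for CD6, 20.1, 19.3 and 19.5 CPM for TRBC1, and 41.7, 37.2 and 36.6 CPM for TRBC2. CD3G and CD8B stood at 0 in every library. The part of these shifts in the results below was not tested.

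Of the 9 genes, 7 lie side by side on the long arm of chromosome 1, and the adaptor genes lie elsewhere. On GRCh38.p14, the RefSeq build of hg38, the cluster runs from 160485036 to 160862887 on chromosome 1 (377.9 kb), in the order SLAMF6, CD84, SLAMF1, CD48, SLAMF7, LY9 and CD244. SLAMF7 and LY9 are on the plus strand and the others on the minus strand. SH2D1B lies 1532 kb beyond the cluster, at 162395268 to 162412136 on the minus strand of chromosome 1, and SH2D1A lies on chromosome X, at 124346563 to 124373160 on the plus strand. The authors' counting is not stated to use strand, so reads of overlapping genes cannot be told apart. In RefSeq, LOC124904439 shares 22153 bases with the span of CD48 and LOC124904440 shares 103 bases with the span of SLAMF7. Neither LOC gene has a value in the authors' counts. The pseudogene PPIAP37 (7 to 26 counts per library) shares 493 bases with the span of CD244 (at least 19787 counts). GENCODE v44, unlike RefSeq, places the protein-coding genes STAG2 and TEX13D over part of SH2D1A on the same strand.

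Of the 4 genes with a called change against untreated cells, CD48, SH2D1A and SH2D1B have an entry in the RefSeq promoter table of GRCh38.p14, and the 250 bases before their start sites are shown 5′ to 3′ on the gene's strand because the adaptors moved in opposite directions with T003 while CD48 rose with either agent. The windows are chr1:160711823-160712072 (minus strand) for CD48, chrX:124346313-124346562 (plus strand) for SH2D1A and chr1:162412137-162412386 (minus strand) for SH2D1B. Capitals mark letters that match, on either strand, 1 of 5 motifs of factors active in lymphocytes or of the core promoter.
CD48: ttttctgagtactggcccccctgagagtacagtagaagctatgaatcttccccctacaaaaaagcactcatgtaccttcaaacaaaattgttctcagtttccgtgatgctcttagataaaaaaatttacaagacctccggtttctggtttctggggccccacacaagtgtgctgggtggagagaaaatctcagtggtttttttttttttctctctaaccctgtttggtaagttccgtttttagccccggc
SH2D1A: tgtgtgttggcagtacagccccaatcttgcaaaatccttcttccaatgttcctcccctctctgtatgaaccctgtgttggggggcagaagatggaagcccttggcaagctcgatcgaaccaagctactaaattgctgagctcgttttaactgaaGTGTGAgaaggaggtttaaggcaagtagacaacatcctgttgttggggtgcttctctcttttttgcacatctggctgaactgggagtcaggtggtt
SH2D1B: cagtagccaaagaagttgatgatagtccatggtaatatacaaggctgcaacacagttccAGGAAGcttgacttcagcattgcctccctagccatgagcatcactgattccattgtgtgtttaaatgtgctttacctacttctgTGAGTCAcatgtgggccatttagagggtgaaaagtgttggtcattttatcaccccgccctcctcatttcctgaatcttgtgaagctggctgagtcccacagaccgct
The motifs searched were AGGAAG for ETS factors, TGTGGT for RUNX factors, GTGTGA for T-box factors, TATAAA for the TATA box and TGANTCA for AP-1. Among 35116 windows of this length in the table, 28.7% held the ETS letters, 11% the RUNX letters, 9.9% the T-box letters, 10.7% the TATA letters and 6.57% the AP-1 letters. SH2D1A held 1 T-box match, beginning 96 bases before the start. SH2D1B held 1 ETS match, 191 bases before the start, and 1 AP-1 match nearer the start. The same AP-1 letters were in the CD244 window, and the same ETS letters in those of SLAMF1 and SLAMF6, which are not shown. None of CD244, SLAMF1 and SLAMF6 was called against untreated cells. None of the 5 motifs was in the CD48 window. The matches do not overlap each other and are a description of these letters only.

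In untreated cells the members spanned a wide range of levels. Levels of different genes can be compared only per length, and CPM per kb of the MANE Select transcript (the reference transcript of GENCODE v44) is used here. By that measure CD48 stood at 242 ± 4.64 (SD, n = 2), SH2D1A at 92.2 ± 0.0832, SLAMF7 at 90.3 ± 1.79 and CD244 at 72.9 ± 0.463. SH2D1B followed at 32.9 ± 0.864 and SLAMF6 at 9.57 ± 0.458. SLAMF1 was at 1.32 ± 0.0760 and LY9 at 0.974 ± 0.0128. The order of the upper genes depends on the length used. Per kb of all annotated exons CD48 was at 81.7, CD244 at 63.0, SLAMF7 at 50.6 and SH2D1A at 41.4, and the 4 lower genes kept their order with SH2D1B at 29.8, SLAMF6 at 9.53, SLAMF1 at 1.23 and LY9 at 0.259. The gap between the adaptors and SLAMF6, and that between SLAMF6 and SLAMF1, exceeded the spread between libraries by either length.

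**Figure D1:**
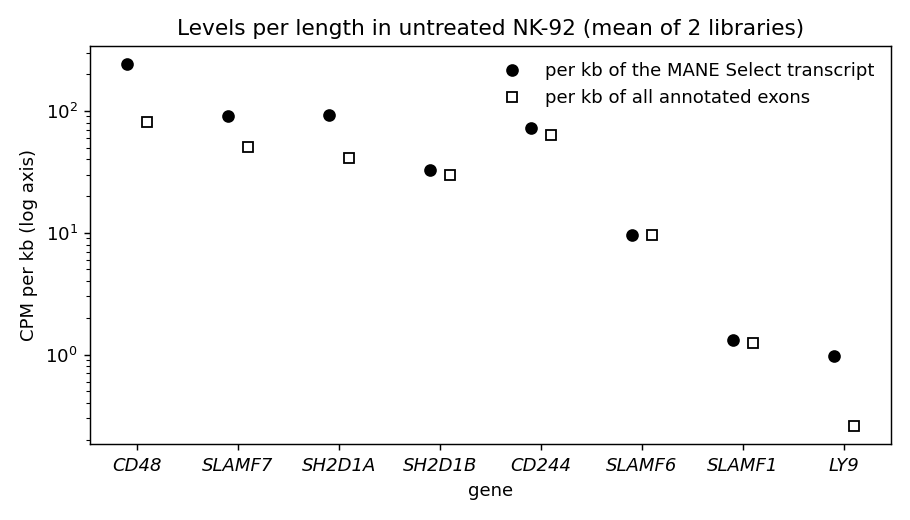
Mean level of the 8 genes that passed the filter in the 2 untreated libraries, in CPM per kb on a log axis. Filled circles use the MANE Select transcript (CD48 at 242, LY9 at 0.974) and open squares all annotated exons (CD48 at 81.7, LY9 at 0.259). CD48 is highest by either length.

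CD84, a receptor that binds itself and is known from B cells, platelets and myeloid cells, had 6 counts in untreated replicate 2 and 0 in the other 9 libraries. A count of 3, taken as the floor per library, corresponds to 0.0209 to 0.0278 CPM, so a lower level would not be detectable at this depth. These limits cover counting error only. No fold change is given for it.

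CD48 is the ligand of CD244 and is found on most blood cells. It had 262 and 269 CPM in the untreated libraries, 258 and 259 after 6 h of DFO, 263 and 265 with T003 for 6 h, 293 and 291 after 24 h of DFO, and 290.1 and 298 with T003 for 24 h. All 4 libraries at 24 h lay above all 6 others. The share of all genes that lay apart from untreated cells is not given, so statements on overlap here and below describe the libraries only. Between 24 h and 6 h, 49.9% of all genes did not overlap with DFO and 52.9% with T003. In edgeR's quasi-likelihood test with Benjamini-Hochberg adjustment over all genes, the 24 h level was higher by 0.14 (log2, SE 0.0228, adjusted p = 0.00492) in the DFO libraries and by 0.15 (SE 0.0228, adjusted p = 0.00202) in the T003 libraries. The CD48 call held without each library in turn, with adjusted p of at most 0.0405 for DFO and 0.0286 for T003 in edgeR's fits. In the order of the 5 group levels, T003 at 24 h and DFO at 24 h overlapped, as did untreated cells and T003 at 6 h.

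CD244, the receptor of CD48, had 183 and 181 CPM in the untreated libraries, 183 and 180.1 after 6 h of DFO, and 188 and 183 with T003 for 6 h. At 24 h it had 183 and 178 CPM with DFO and 177 and 184 CPM with T003. The highest library exceeded the lowest by a factor of 1.06, and at 24 h both treated groups overlapped untreated cells. The log2 change at 24 h was -0.01 with DFO (95% interval -0.07 to 0.05) and -0.01 with T003 (-0.07 to 0.05), and neither passed the test (edgeR adjusted p = 0.885 and 0.896). The number of CD48 counts for each CD244 count was 1.60 and 1.64 after 24 h of DFO, and 1.64 and 1.62 with T003 for 24 h, against 1.44 and 1.49 in untreated cells.

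SLAMF7, a receptor that binds itself, activates NK cells through EAT-2 and is a target of antibody treatment in myeloma, had the largest called change against untreated cells. It had 248 and 241 CPM in the untreated libraries, 239 and 241 after 6 h of DFO, 244 and 238 with T003 for 6 h, 271 and 269 after 24 h of DFO, and 299.7 and 307 with T003 for 24 h. The groups at 24 h overlapped neither each other nor any earlier group, and T003 stood above DFO. Its mean was 270.1 ± 1.62 CPM after 24 h of DFO, and 304 ± 5.48 CPM with T003 for 24 h, against 244 ± 4.86 CPM in untreated cells (SD, n = 2 each). With DFO SLAMF7 rose by 0.14 (log2, SE 0.0241, edgeR adjusted p = 0.0048), and it rose by 0.31 (SE 0.0241, adjusted p = 2.61e-05) with T003. The DFO call ended without untreated replicate 2 (adjusted p = 0.0593), whereas the T003 call held without each library (at most 0.000677).

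SLAMF6, which binds itself and acts through SAP and EAT-2 in NK cells, had 25.3 and 27.1 CPM untreated, 24.3 and 24.9 after 6 h of DFO, and 25.6 and 23.9 with T003 for 6 h. At 24 h it had 26.0 and 24.9 CPM with DFO and 23.3 and 24.2 CPM with T003. The T003 libraries at 24 h lay below both untreated ones, which is no evidence of a change, and the DFO libraries overlapped them. The log2 changes at 24 h, -0.04 with DFO (95% interval -0.16 to 0.08) and -0.14 with T003 (-0.26 to -0.02), did not pass (edgeR adjusted p = 0.808 and 0.146).

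SLAMF1, which binds itself and is also the measles virus receptor, was low. It had 4.74 and 5.15 CPM untreated, 4.51 and 6.00 after 6 h of DFO, and 4.49 and 4.25 with T003 for 6 h. It had 4.47 and 3.81 CPM after 24 h of DFO, and 4.32 and 3.58 CPM with T003 for 24 h. All 4 libraries at 24 h lay below both untreated libraries, which without the share of all genes that did so is no evidence of a change. The changes at 24 h, -0.26 (log2, 95% interval -0.58 to 0.07) with DFO and -0.33 (-0.65 to 0.00) with T003, did not pass (edgeR adjusted p = 0.412 and 0.212).

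LY9, a receptor that binds itself, had 2.38 and 2.34 CPM untreated, 2.00 and 2.18 after 6 h of DFO, and 2.55 and 2.40 with T003 for 6 h. It had 2.55 and 3.23 CPM after 24 h of DFO, and 2.64 and 3.19 CPM with T003 for 24 h. Both treated groups at 24 h lay above the untreated libraries and overlapped each other. As for SLAMF1, the separation from untreated cells is no evidence of a change. The changes of 0.29 (log2, 95% interval -0.03 to 0.62) with DFO and 0.30 (-0.02 to 0.63) with T003 did not pass (edgeR adjusted p = 0.319 and 0.238). SLAMF1 and LY9 had 447 to 796 and 216 to 437 counts per library, and their standard errors at 24 h (0.149 and 0.146) were about 6 times those of CD48 and SLAMF7.

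SH2D1A encodes SAP, which recruits the kinase FYN to the receptors. It had 206 and 206 CPM in the untreated libraries, 213 and 208 after 6 h of DFO, and 206 and 201 with T003 for 6 h. It had 212 and 217 CPM after 24 h of DFO, and 225 and 223 CPM with T003 for 24 h. Only the 24 h libraries of T003 lay above every library of each other group. It rose with T003 at 24 h by 0.12 (log2, SE 0.0238, edgeR adjusted p = 0.00737), and the value with DFO was 0.06 (SE 0.0238, adjusted p = 0.224). The T003 call ended without untreated replicate 2 (adjusted p = 0.0513) and without T003 24 h replicate 1 (0.0674).

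SH2D1B encodes EAT-2, the adaptor that NK cells use beside SAP and that links the receptors to phospholipase C gamma. It had 84.8 and 81.7 CPM untreated, 87.0 and 83.6 after 6 h of DFO, and 80.6 and 82.7 with T003 for 6 h. It had 75.2 and 75.6 CPM after 24 h of DFO, and 70.9 and 74.3 CPM with T003 for 24 h. All 4 libraries at 24 h lay below the 6 others. With DFO it fell by 0.14 (log2, SE 0.0337, edgeR adjusted p = 0.0296), and it fell by 0.20 (SE 0.0338, adjusted p = 0.00327) with T003. The T003 call held without each library (adjusted p at most 0.0338). The DFO call ended without either untreated library (0.186 and 0.0820), without either DFO 24 h library (0.147 and 0.141) and without either T003 6 h library (0.0508 and 0.0541), and with the 4 compared libraries alone (0.0545).

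The adaptors stood in a different proportion at 24 h. Within a library the number of SH2D1A counts for each SH2D1B count was 2.82 and 2.87 after 24 h of DFO, and 3.17 and 2.999 with T003 for 24 h, against 2.43 and 2.52 in untreated cells. At 6 h it was 2.45 and 2.49 with DFO and 2.56 and 2.43 with T003. All 4 ratios at 24 h lay above the 6 others. A ratio within a library does not depend on the scaling of that library. It is not a ratio of molecules, since the transcripts differ in length, and it was not tested. Such a ratio restates the levels of its genes given above and is no separate evidence. How many other pairs of genes separate in this way was not counted. The SLAMF7 to SLAMF6 ratio was 10.4 and 10.8 after 24 h of DFO, and 12.9 and 12.7 with T003 for 24 h, against 9.80 and 8.91 in untreated cells.

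**Figure D2:**
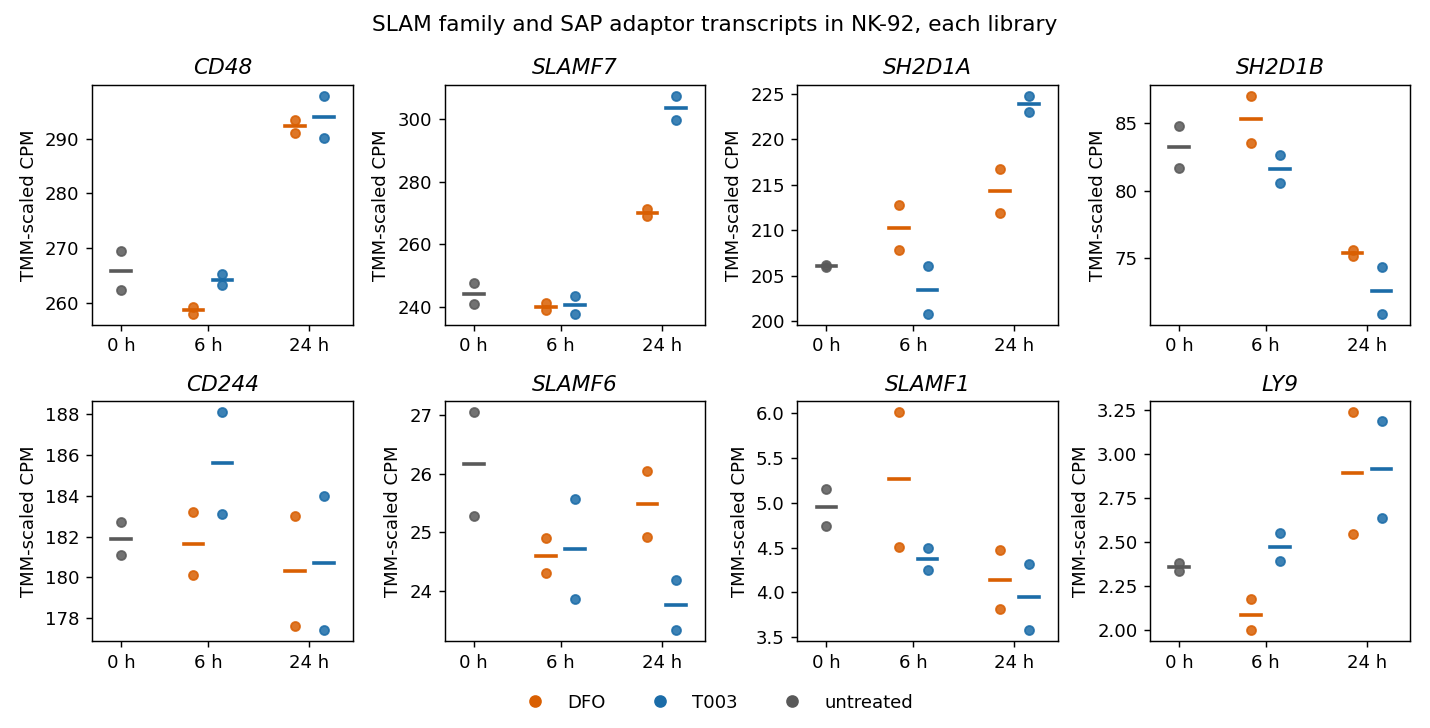
TMM-scaled CPM of 8 genes in each library by time, with DFO (orange), T003 (blue) and untreated cells (grey). Points are libraries, bars the mean of 2, and each panel has its own axis, which does not start at 0. CD48 and SLAMF7 at 24 h lie above, and SH2D1B below, all earlier libraries.

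**Figure D3:**
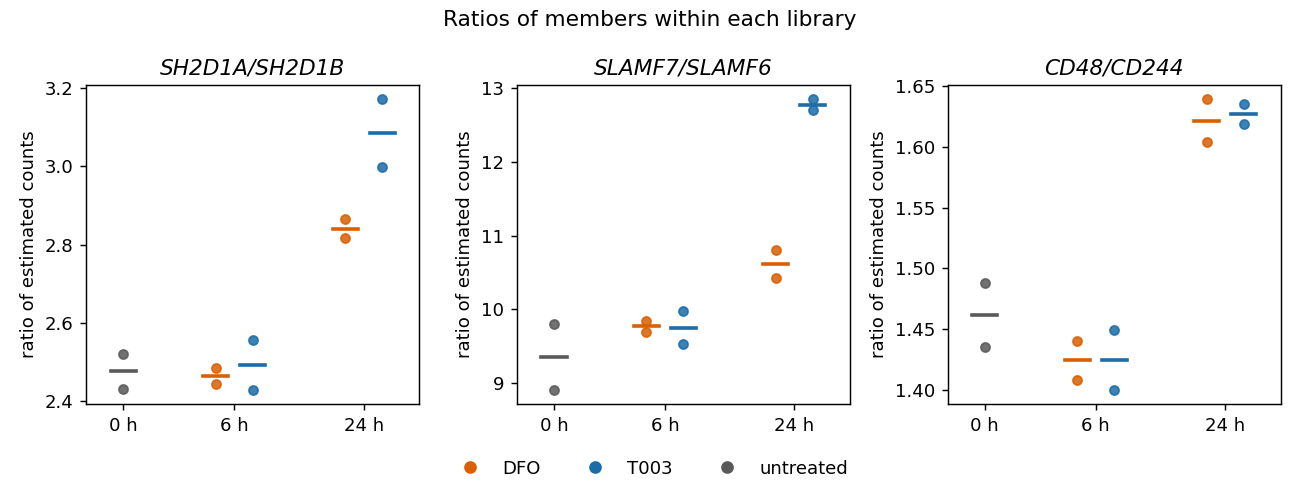
Ratios of estimated counts within each library for 3 pairs of genes, by time, with DFO in orange, T003 in blue and untreated cells in grey. Bars are means of 2 libraries and the axes do not start at 0. The SH2D1A to SH2D1B ratio is 2.43 to 2.56 up to 6 h and 2.82 to 3.17 at 24 h.

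Counted together, 2 of the 8 tested genes rose (CD48, SLAMF7) and 1 fell (SH2D1B) after 24 h of DFO, where 6.7% of all 20125 tested genes were called (3.43% higher, 3.27% lower). With T003 at 24 h, 3 rose (CD48, SLAMF7, SH2D1A) and 1 fell (SH2D1B), where 12.5% were called (7.1% higher, 5.44% lower). Without untreated replicate 2 only CD48 was called with DFO. The median log2 change of the 8 was 0.0219 with DFO and 0.0551 with T003, against -0.00229 and -0.00688 over all genes. Both sets share the untreated libraries. The members were chosen with earlier results of these data known, and the shares of all genes were not matched for level, so the counts are a description. The 6 h comparisons called none of the 8 by edgeR with either agent, none at an unadjusted p under 0.05, and none by DESeq2 or limma-voom. The 95% intervals at 6 h reached at most 0.11 in size for CD48, CD244, SLAMF7, SH2D1A and SH2D1B.

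**Figure D4:**
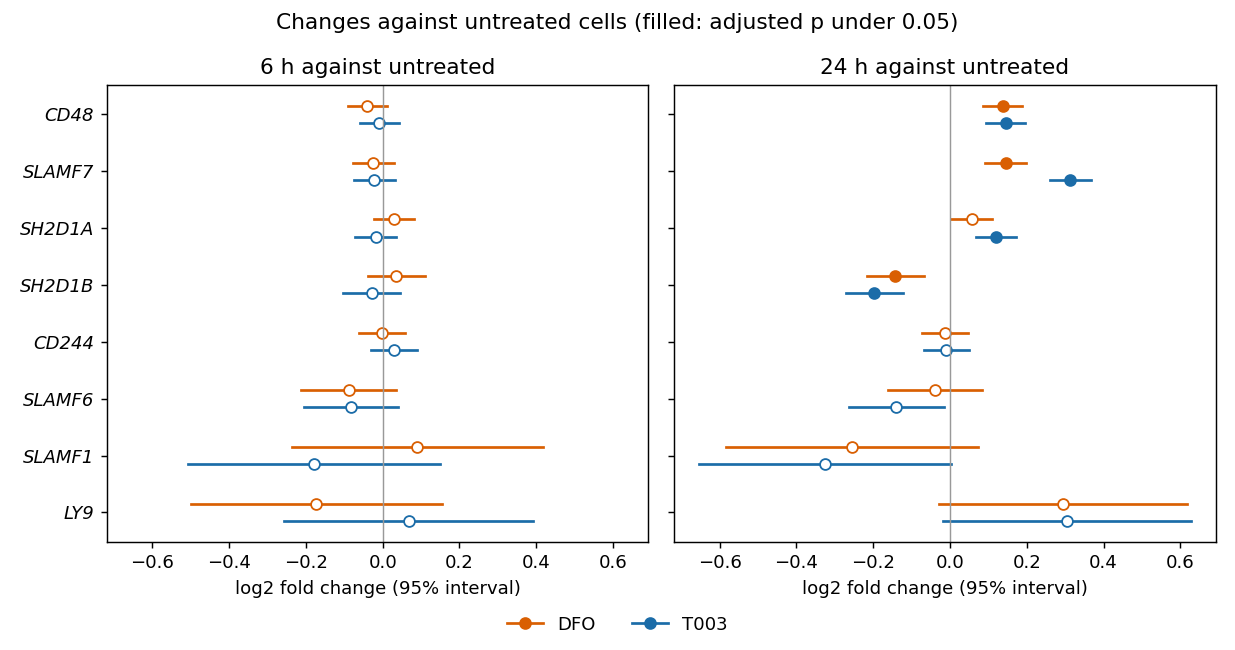
Log2 fold change against untreated cells at 6 h (left) and 24 h (right), with 95% intervals from the edgeR fit, for DFO (orange) and T003 (blue). Filled points passed an adjusted p of 0.05. At 24 h SLAMF7 with T003, at 0.31, lies farthest from 0 among the filled points, and the intervals of SLAMF1 and LY9 are the widest.

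Between the agents at 24 h, 1 of the 8 genes was called. SLAMF7 was lower with DFO than with T003 at 24 h, by 0.17 (log2 -0.17, SE 0.0241, edgeR adjusted p = 0.0108), where 1.34% of all genes were called. That call ended when any 1 of the 4 libraries at 24 h was left out (adjusted p = 0.0746 to 0.139) and with the 4 compared libraries alone (0.0516). The intervals of DFO against T003 at 24 h were -0.06 to 0.04 for CD48, -0.06 to 0.06 for CD244, -0.12 to -0.01 for SH2D1A and -0.02 to 0.13 for SH2D1B, none of which passed the test. SLAMF6 (-0.02 to 0.22), SLAMF1 (-0.26 to 0.40) and LY9 (-0.33 to 0.31) did not pass either. At 6 h none of the 8 differed between the agents by edgeR, at an unadjusted p under 0.05, or by DESeq2 or limma-voom, where edgeR called 0% of all genes. The interaction of agent and time, which asks whether the step between 6 h and 24 h differed, passed for none of the 8 by edgeR (0.0199% of all genes called) and for 2 at an unadjusted p under 0.05. These were SLAMF7 (-0.17, SE 0.0341, adjusted p = 0.176) and SH2D1A (-0.11, SE 0.0337, adjusted p = 0.36), and DESeq2 called SLAMF7 (adjusted p = 0.00181) while limma-voom called none.

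Between 6 h and 24 h, 3 genes were called with DFO (CD48 and SLAMF7 higher, SH2D1B lower), where 9.89% of all genes were, and 4 with T003 (the same 3 and SH2D1A, higher), where 13.5% were. The 24 h and 6 h libraries of all these genes did not overlap, as for 49.9% of all genes with DFO and 52.9% with T003.

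Estimates along the cluster lay on both sides of 0, but the only called genes of the cluster, CD48 and SLAMF7, were higher with either agent. With T003 at 24 h, the log2 changes along the cluster were -0.14 for SLAMF6, -0.33 for SLAMF1, 0.15 for CD48, 0.31 for SLAMF7, 0.30 for LY9 and -0.01 for CD244, of which CD48 and SLAMF7 passed. Of 39 protein-coding RefSeq genes inside the cluster or within 500 kb of it, 29 were tested. With DFO at 24 h 1 was higher and 3 lower, and with T003 2 were higher and 3 lower, against the 6.7% and 12.5% of all genes called. PEA15 rose by 0.14 (SE 0.0267, edgeR adjusted p = 0.011) and 0.25 (SE 0.0267, 0.000188) with DFO and T003. DEDD, a death effector domain gene, fell by 0.27 (SE 0.0562, adjusted p = 0.0154) and 0.30 (SE 0.0563, 0.00534), and NCSTN, a gamma-secretase subunit, by 0.15 (SE 0.0404, 0.0498) and 0.22 (SE 0.0404, 0.00496). DCAF8 fell by 0.14 (SE 0.033, adjusted p = 0.0338) and 0.11 (SE 0.033, 0.0498), and B4GALT3 rose with T003 (0.15, SE 0.0379, 0.0292). Of these 9 calls, those of PEA15 and NCSTN with T003 held without each library. The other 7 each ended without untreated replicate 2, and 6 of them also without other libraries. With the compared groups alone the calls of DCAF8 with both agents (0.0769 for DFO, 0.0683 for T003) and of NCSTN with DFO (0.0508) ended. RLE scaling ended those of DCAF8 with T003 (0.0519) and NCSTN with DFO (0.0510), as did the replicate number as a block (0.0563 and 0.0695).

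**Figure D5:**
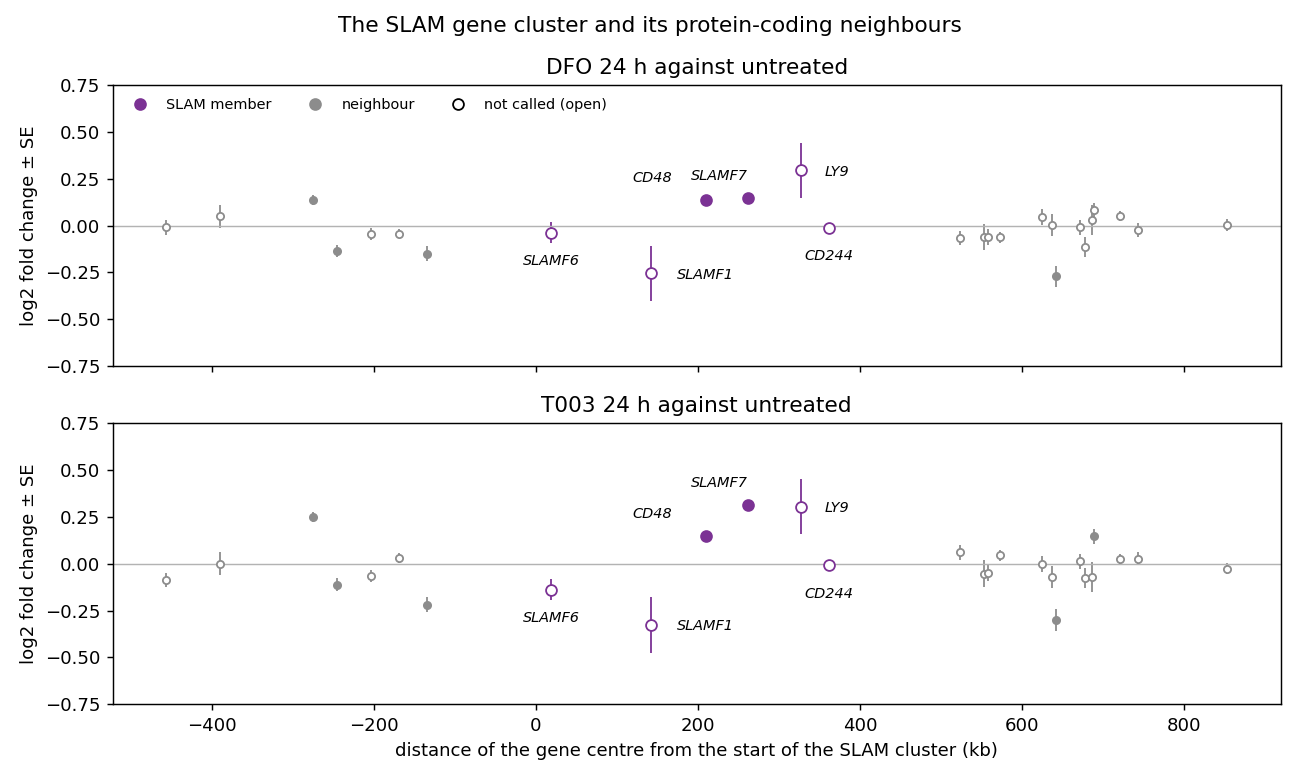
Log2 fold change at 24 h (points, with SE) of the 6 tested SLAM genes (purple) and 21 neighbours with a mean of at least 1 CPM (grey), against the distance of the gene's centre from the start of the cluster in kb, for DFO (top) and T003 (bottom). Filled points passed the test. The estimates of the SLAM genes lie on both sides of 0, from -0.33 (SLAMF1, not called) to 0.31 (SLAMF7) with T003. The filled SLAM genes, CD48 and SLAMF7, lie above 0.

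A list of 43 genes held kinases, phosphatases and adaptors known to act with SLAM receptors, together with genes that are not part of that signalling: the adhesion pair CD2 and CD58, the integrins ITGAL, ITGB2 and ITGAM, and the family relatives SLAMF8 and SLAMF9. Of the 43, 39 were tested. With DFO at 24 h 12 rose and 2 fell, and with T003 13 rose and 4 fell, beside the 6.7% and 12.5% of all genes. The list was chosen with earlier results of these data known. The shares of all genes include many with few counts, in which a small change is harder to call. The counts are therefore a description and not a result about the pathway. The list's median log2 change was 0.0653 and 0.0515, against -0.00229 and -0.00688 over all genes. The Src-family kinases LYN and FYN rose with both agents, LYN by 0.23 (SE 0.0257, edgeR adjusted p = 0.000387) with DFO and 0.21 (SE 0.0257, 0.000444) with T003, and FYN by 0.18 (SE 0.0279, 0.00274) and 0.19 (SE 0.0279, 0.0012). FYN, which SAP recruits, averaged 179 ± 4.59 CPM after 24 h of DFO, and 180.4 ± 1.32 CPM with T003 for 24 h, against 158 ± 1.498 CPM in untreated cells.

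Among those that fell, the adaptor gene GRAP2 was at 44.6 ± 2.08 CPM after 24 h of DFO, and 47.3 ± 0.262 CPM with T003 for 24 h, against 58.9 ± 2.66 CPM in untreated cells (log2 -0.40, SE 0.0407, edgeR adjusted p = 0.000213, and -0.32, SE 0.0406, 0.000605). CD58, the ligand of the SLAM-related receptor CD2, fell by 0.39 (SE 0.0594, adjusted p = 0.00284) in the DFO libraries and 0.37 (SE 0.0594, 0.00223) with T003. PLCG2, a phospholipase C gamma, fell by 0.17 (SE 0.0321, adjusted p = 0.00597) with T003, a call that ended without untreated replicate 1 (0.0521). The count of 14 with DFO was 6 without untreated replicate 2 and 9 and 8 without DFO 24 h replicates 1 and 2. The count of 17 with T003 was 8 without untreated replicate 2 and 11 without either library of T003 at 24 h.

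SLAMF8, a family relative whose short tail lacks the adaptor motif and which is known from macrophages, lies on chromosome 1 at 159826873 to 159837492, outside the cluster. It had 16.9 and 14.7 CPM untreated, 13.8 and 15.2 after 6 h of DFO, 14.1 and 15.5 with T003 for 6 h, 23.8 and 24.0 after 24 h of DFO, and 18.7 and 20.1 with T003 for 24 h. All 4 libraries at 24 h lay above the 6 others. It rose by 0.60 (log2, SE 0.0826, edgeR adjusted p = 0.00151) with DFO, and the call held without each library (at most 0.0233). It rose by 0.30 (SE 0.0828, adjusted p = 0.0387) with T003, a call that ended with the replicate number as a block (0.0529), with the 4 compared libraries alone (0.0512) and without untreated replicate 2 (0.2995) or any library at 24 h (0.0594 to 0.231). The difference between the agents at 24 h, 0.30 (95% interval 0.12 to 0.48), did not pass (adjusted p = 0.114). Its span shares 3015 bases with SNHG28 (0 to 63 counts per library). GENCODE v44 also places a protein-coding gene on the opposite strand that overlaps SLAMF8, and the level of that gene is not given here. SLAMF9, the other relative without the motif, was listed at 0 in every library.

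The genes whose levels ran most like those of the 4 called members were looked for among tested genes whose log2 CPM averaged 2 or more, by Pearson's r of log2 CPM over the 10 libraries. These libraries fall into those at 24 h and the rest, so r is a description with no test. For SLAMF7 they were EIF3D (0.991), XPO6 (0.99) and BCL2 (0.987), and for CD48 CD160 (0.983), GZMA (0.98) and GFOD2 (0.972). For SH2D1A they were RRN3 (0.985), TIFA (0.969) and YTHDF1 (0.968), and for SH2D1B RASGRP1 (0.994), RNF185 (0.979) and ATG2B (0.978).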

How the data were processed

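The authors deposited 1 table of estimated counts for every gene symbol of the 10 libraries, without normalization. The submitters' processing notes name fastp 0.21.0, HISAT2 2.2.1 and StringTie 2.1.6, with hg38 and RefSeq genes per the series' design text. The values are whole numbers, so rounding left them as they were. StringTie estimates counts from coverage, so the floor of 3 counts is approximate.

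Tests used edgeR 4.0.16 (R 4.3.3; quasi-likelihood F-test) in a single group-means model of the 10 libraries, with TMM scaling and filterByExpr at a minimum count of 10. This left 20125 genes, with 5 residual and 5.83 prior degrees of freedom. Benjamini-Hochberg adjustment ran over every tested gene of a comparison, and "called" means that the adjusted p was under 0.05. SE is the size of the log2 fold change over the root of F. The script was tested on simulated counts. Totals per library, which set the precision, are in the report.

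All 9 members are named, and from the list of 43 signalling partners and related genes up to 3 called genes per direction with the smallest p in each 24 h comparison with untreated cells, the called neighbours, and the 3 genes most like each called member. A gene of the list that this rule also names is not reported here. Members and lists were chosen with earlier results of these data known. Alternatives were RLE scaling, no filter, 1 CPM in 2 libraries, DESeq2 1.42.0, limma-voom (limma 3.58.1), a block for the replicate number, the compared groups alone, a fold of 1.2 or more, and each library left out.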

Additional observations from a re-analysis of the deposited data

Results flagged for a closer look

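The levels of 4 genes differed between 6 h and 24 h of the same agent. With no untreated library at either time, agent and time in culture cannot be told apart in this difference. It was tested as 24 h against 6 h in the edgeR model, in which the untreated libraries drop out. With DFO, CD48 was higher at 24 h by 0.18 (log2, SE 0.0228, adjusted p = 0.000677) and SLAMF7 by 0.17 (SE 0.0241, adjusted p = 0.00131). SH2D1B was lower at 24 h of DFO (log2 -0.18, SE 0.0338, adjusted p = 0.00732). That call ended without DFO 6 h replicate 1 (0.0760), the library that stood apart, and without DFO 24 h replicates 1 and 2 (0.0566 and 0.0508).

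With T003, SLAMF7 was higher at 24 h than at 6 h by 0.33 (log2, SE 0.0241, adjusted p = 1.14e-05), CD48 by 0.15 (SE 0.0228, adjusted p = 0.00123) and SH2D1A by 0.14 (SE 0.0238, adjusted p = 0.00298). SH2D1B was lower (log2 -0.17, SE 0.0338, adjusted p = 0.00715), a call that ended without T003 6 h replicate 2 (0.0692) and without T003 24 h replicate 1 (0.0621). In each of these 7 cases both libraries at 24 h lay on the same side of both libraries at 6 h, which held for 49.9% of all genes with DFO and 52.9% with T003.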

How the results depend on the processing

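No value of the 8 genes that was called in either setting changed direction under any alternative. Of 1296 values recomputed, 1262 kept their side of the threshold, 33 lost a call and 1 gained one. Values not called in either setting changed sign in 42 cases, named genes outside the family included. All values compared, called or not, numbered 1728. Requiring a fold of at least 1.2 left 0 called genes with DFO at 24 h, 1 with T003 at 24 h (SLAMF7), 0 for DFO against T003 at 24 h, 0 for 24 h against 6 h of DFO, and 1 for 24 h against 6 h of T003 (SLAMF7), and 5 of the list of 43 partner genes with either agent. DFO against T003 at 24 h had 0 in a model of the compared groups alone, and the interaction had 1 with DESeq2. Leaving out 1 library gave 1 to 3 genes with DFO at 24 h, 3 to 4 with T003 at 24 h, 0 to 1 for DFO against T003 at 24 h, 2 to 3 and 3 to 4 for 24 h against 6 h of DFO and T003, and 6 to 14 and 8 to 17 of the list of 43 partner genes with DFO and T003. The cause of these shifts was not tested. The replicate number as a block left 3 of the 8 genes called with DFO and 4 with T003 at 24 h, as without it, and 13 and 15 of the list of 43 partner genes. Deviations of libraries with the same number correlated at -0.0521 to 0.0125 between groups. All tested genes weighed equally in this, so noise in genes with few counts can hide a shared culture or batch. Whether libraries with the same number shared either is not settled by these values.

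Counts over all genes moved more. With DFO at 24 h 1349 were called, against 431 to 1383 without 1 library and 472 to 1870 under the other alternatives, and with T003 2524, against 1084 to 2544 and 859 to 2918. The counts for 24 h against 6 h were 1991 with DFO (950 to 1824 and 731 to 2533) and 2714 with T003 (1336 to 2739 and 956 to 3031). DFO against T003 called 270 at 24 h (14 to 229 and 39 to 878) and 0 at 6 h (0 to 4 and 0 to 6). DFO and T003 at 6 h called 5 (1 to 11 and 2 to 434) and 6 (1 to 13 and 1 to 69), and the interaction 4 (2 to 11 and 3 to 180). CD84, with at most 6 counts in a library, did not pass the filter on low counts and was not tested.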
